A study of Mus musculus with 12 samples.

Results

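The genes described here are 10 central genes of the unfolded protein response, chosen by name as its sensors, transcription factors and main targets: Ern1, Xbp1, Dnajb9, Edem1, Atf6, Hspa5, Hsp90b1, Eif2ak3, Atf4 and Ddit3. They were 10 of the 29564 genes in the deposited tables, and each of the 10 passed the filter on low counts, with 305 estimated counts or more in every library. The 10 genes and the lists of further genes used below were chosen with earlier results of these data known. The libraries hold polyadenylated RNA of left ventricles from 12 wild-type mice (C57BL6 in the labels, C57BL/6J in the published methods), with 4 mice in each of 3 groups. Control-Veh mice had no heart failure model and received vehicle. HFpEF-Veh mice received a high-fat diet and L-NAME, which blocks nitric oxide synthase, and then vehicle. Diet and L-NAME together are used to model HFpEF, heart failure in which the ejection fraction is preserved. HFpEF-TYA-018 mice had the same diet and L-NAME and received 15 mg/kg of oral TYA-018, which inhibits HDAC6, a cytoplasmic deacetylase. The series title speaks of a single dose and the treatment label of daily dosing for weeks, while the published report describes hearts collected hours after one dose. All mice were male according to the published methods, and their age at collection was not given in the sources used here. Control-Veh libraries are called C1 to C4, HFpEF-Veh libraries V1 to V4 and HFpEF-TYA-018 libraries T1 to T4. Where 3 means or ranges stand together, Control-Veh comes first, HFpEF-Veh second and HFpEF-TYA-018 last.

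The unfolded protein response is the signalling system by which a cell matches the folding capacity of its endoplasmic reticulum (ER) to the load of secreted and membrane proteins. Sensors in the ER membrane start it. IRE1 (gene Ern1) splices the Xbp1 messenger so that the active transcription factor XBP1 is made, ATF6 is cut in the Golgi to release a transcription factor, and PERK (gene Eif2ak3) phosphorylates eIF2 alpha, which slows translation in general and favours that of ATF4. Because IRE1, PERK and ATF6 are switched on through the protein and Xbp1 through splicing, gene totals of RNA such as these do not measure their activity. In the heart the system is known from pressure overload, ischaemia and metabolic stress.

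The chaperone genes Hspa5 (BiP) and Hsp90b1 (GRP94) are the textbook targets of ATF6, which acts through the ER stress response element, which reads CCAAT, then any 9 bases, then CCACG. The 250 bases before the RefSeq start of 9 of the 10 genes were searched for it on both strands (RefSeq promoters, GRCm38.p6). It was found in 2 of the 9, Hspa5 and Hsp90b1, and in 35 of all 27025 genes with a promoter of that length (0.13%). The match in Hspa5 began 65 bases before the start. The matches in Hsp90b1 began 212 bases before the start on the gene's strand and 107 bases before it on the other. The promoters of both genes are shown with the matches in capitals, followed by that of Eif2ak3, which held none and whose RNA differed between HFpEF-TYA-018 and HFpEF-Veh. They are written 5′ to 3′ on the strand of the gene, and lie at chr2:34771840-34772089 (plus strand), chr10:86705445-86705694 (minus strand) and chr6:70844265-70844514 (plus strand).
Hspa5: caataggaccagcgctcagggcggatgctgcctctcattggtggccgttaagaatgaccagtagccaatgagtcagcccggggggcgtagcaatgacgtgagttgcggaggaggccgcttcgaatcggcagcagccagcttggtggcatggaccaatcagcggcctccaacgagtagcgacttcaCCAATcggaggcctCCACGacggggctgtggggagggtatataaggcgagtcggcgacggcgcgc
Hsp90b1: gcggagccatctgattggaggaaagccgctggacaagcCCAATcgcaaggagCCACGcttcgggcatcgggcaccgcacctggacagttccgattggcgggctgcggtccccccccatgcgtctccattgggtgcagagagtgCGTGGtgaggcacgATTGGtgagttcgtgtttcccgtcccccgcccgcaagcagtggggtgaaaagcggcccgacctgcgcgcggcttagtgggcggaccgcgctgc
Eif2ak3: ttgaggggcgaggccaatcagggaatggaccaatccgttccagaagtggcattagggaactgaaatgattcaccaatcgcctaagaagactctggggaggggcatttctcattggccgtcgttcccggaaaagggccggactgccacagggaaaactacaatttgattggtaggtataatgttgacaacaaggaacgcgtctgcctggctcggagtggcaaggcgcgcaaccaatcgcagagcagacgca
The other motifs searched were ERSE-II (ATTGG, any 1 base, CCACG), the element bound by XBP1 and ATF6 (TGACGTGG) and the element bound by ATF4 with CEBP factors (TGATGNAAT), which occurred in 0.037%, 0.603% and 0.91% of all promoters and in 0 of the 9. A match is a match of letters and was not tested as a binding site. Of the 17 tested genes with the ER stress response element, 1 rose and 1 fell in HFpEF-Veh against Control-Veh, and the same numbers held for HFpEF-TYA-018 against HFpEF-Veh (edgeR, adjusted p under 0.05). That is 5.88% each way. Of all tested genes, 10.9% rose and 10.3% fell in the first comparison, and 8.93% rose and 10.4% fell in the second.

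Per base of deposited effective length, the chaperones and the death-associated factor stood at the top and Edem1 and the sensor genes Eif2ak3 and Ern1 at the bottom. In TPM, the share of transcripts after division by length, Control-Veh libraries had Hspa5 at 22.9 ± 1.91, Hsp90b1 at 18.8 ± 3.35 and Ddit3 at 16.8 ± 3.55 (mean ± SD, n = 4), and the range of Hsp90b1 over its 4 libraries overlapped those of the other 2. Atf4 (10.9 ± 0.785 TPM) and Xbp1 (10.4 ± 0.792 TPM) followed and overlapped each other. Dnajb9 was at 2.90 ± 0.625 and Atf6 at 2.08 ± 0.170 TPM, with overlapping ranges. Eif2ak3 (0.860 ± 0.341), Edem1 (0.371 ± 0.0472) and Ern1 (0.224 ± 0.0471 TPM) were lowest, and the range of Edem1 overlapped that of Eif2ak3 but not that of Ern1. This order depends on the deposited lengths. In Control-Veh they were 9960 to 11710 bases for Ern1 and 7467 to 8725 for Edem1, above their longest annotated transcripts of 6946 and 6077 bases. For Ddit3 they were 271 to 333 bases, beside a longest transcript of 969 bases. All further levels are CPM, counts as a share of the library, after TMM scaling (a trimmed mean of log ratios between libraries), a scale on which a gene is compared only with itself.

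Samples differed in composition along with the groups. Totals per library ranged from 61.2 to 83.9 M estimated counts (M, 1e06). Mitochondrially encoded genes took 43.1 to 47.7% of the counts in HFpEF-Veh, 37.0 to 40.6% in Control-Veh and 35.4 to 41.3% in HFpEF-TYA-018. All 6 macrophage markers and all 5 red cell markers, 3 of 6 fibroblast markers and 3 of 5 endothelial markers rose in HFpEF-Veh against Control-Veh, while 5 of 7 cardiomyocyte markers fell and 1 rose. Of 5 smooth muscle and pericyte markers, 1 rose (Rgs5). Nppa, 1 of 3 tested atrial markers, and Cd79a, 1 of 5 tested plasma and B cell markers, fell. Of all tested genes, 10.9% rose and 10.3% fell. In HFpEF-TYA-018 against HFpEF-Veh, 5 of 5 red cell, 4 of 6 macrophage, 4 of 6 fibroblast and 3 of 5 endothelial markers fell, while 2 of 7 cardiomyocyte markers (Myh6 and Pln) rose and all 7 were above zero. Rgs5 fell there too, and no atrial or plasma and B cell marker passed. Of all tested genes, 8.93% rose and 10.4% fell. The adipocyte markers Plin1, Lep and Cfd were too low to be tested, and the summed adipocyte level was at most 0.922 CPM in any library. Fewer cells of a type and less RNA per cell cannot be told apart in such bulk samples. For each library measure the smallest two-sided exact permutation p of 4 against 4 libraries is 0.0286, which became 0.0743 after adjustment over 39 tests, so none of these sums passed.

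**Figure D1:**
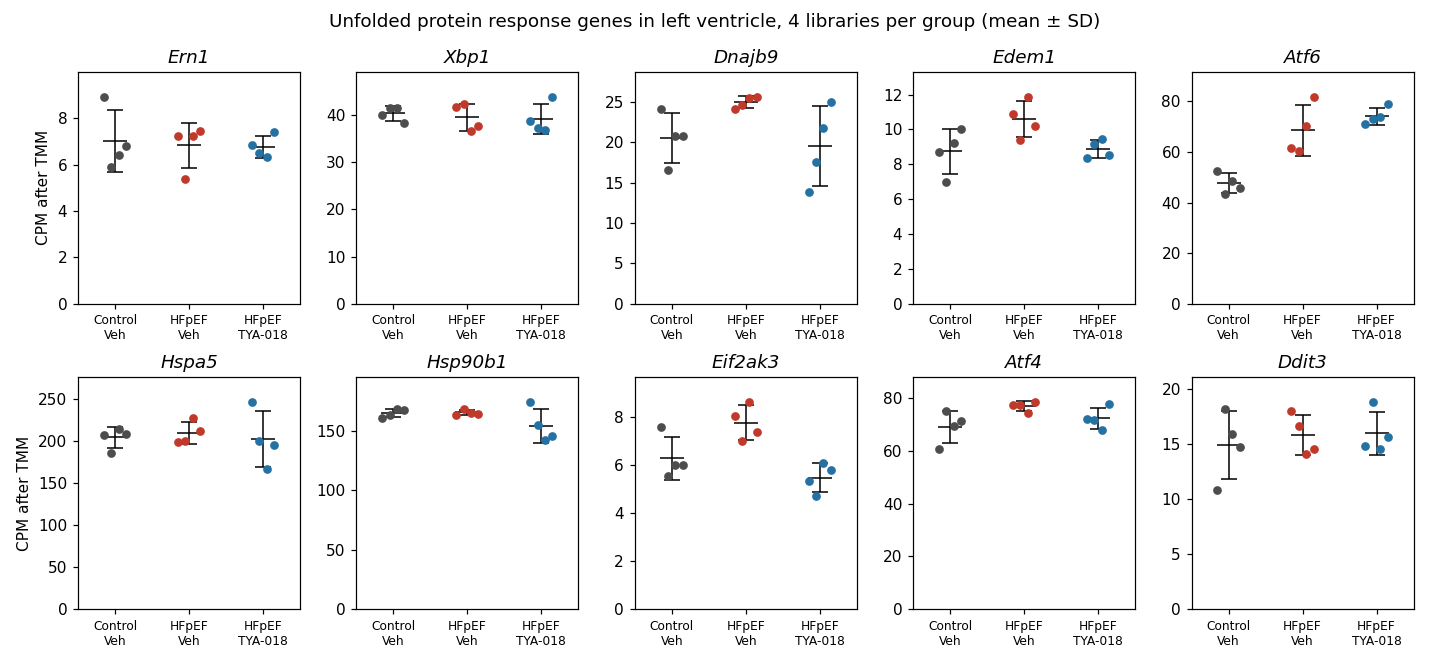
Level of each of the 10 genes in every library, in CPM after TMM (vertical axis from 0), by group (horizontal axis). Points are libraries and bars are the mean and SD of 4. The 4 Control-Veh points of Atf6 lie below all 8 points of the model groups, and the 4 HFpEF-TYA-018 points of Eif2ak3 lie below the 4 HFpEF-Veh points, while the Xbp1, Hspa5 and Ddit3 points of the 3 groups overlap.

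In HFpEF-Veh against Control-Veh, 1 of the 10 genes rose and 0 fell at an adjusted p under 0.05 (edgeR quasi-likelihood test, Benjamini-Hochberg over 14333 genes). Of all tested genes, 10.9% rose and 10.3% fell, so 1 of 10 was close to the share over all genes. The gene was Atf6. The median log2 fold change was 0.12 over the 10 genes, with 8 above zero, and -0.01 over all tested genes. On log2(TPM + 1) and log2(TPM + 0.1) the median of the 10 turned to -0.08 and -0.14, and that of all genes was -0.07 and -0.17. In 1 of the 10, Atf6, the libraries of the groups did not overlap, against 23.5% of all tested genes.

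In HFpEF-TYA-018 against HFpEF-Veh, 0 of the 10 rose and 1 fell, against 8.93% and 10.4% of all tested genes. The gene was Eif2ak3, the 1 member whose libraries did not overlap (25.1% of all tested genes). The median over the 10 was -0.07, with 2 above zero, and over all tested genes 0.00198 on the log2 scale. The median of the 10 turned to 0.25 and 0.33 on log2(TPM + 1) and log2(TPM + 0.1), where that of all genes was 0.17 and 0.34. Both comparisons use the 4 HFpEF-Veh libraries, so a high value in those libraries enters them with opposite sign. In HFpEF-TYA-018 against Control-Veh, 1 rose (Atf6) and 0 fell, against 3.12% and 2.74% of all tested genes. Atf6 was also the 1 member without overlap there (14.8% of all tested genes), and the median over the 10 was -0.03, with 4 above zero. That median was 0.18 and 0.20 on the same TPM scales, and 0.02 on rescaled log2(TPM + 1), for which TPM was summed to an equal total over protein-coding nuclear genes.

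**Figure D2:**
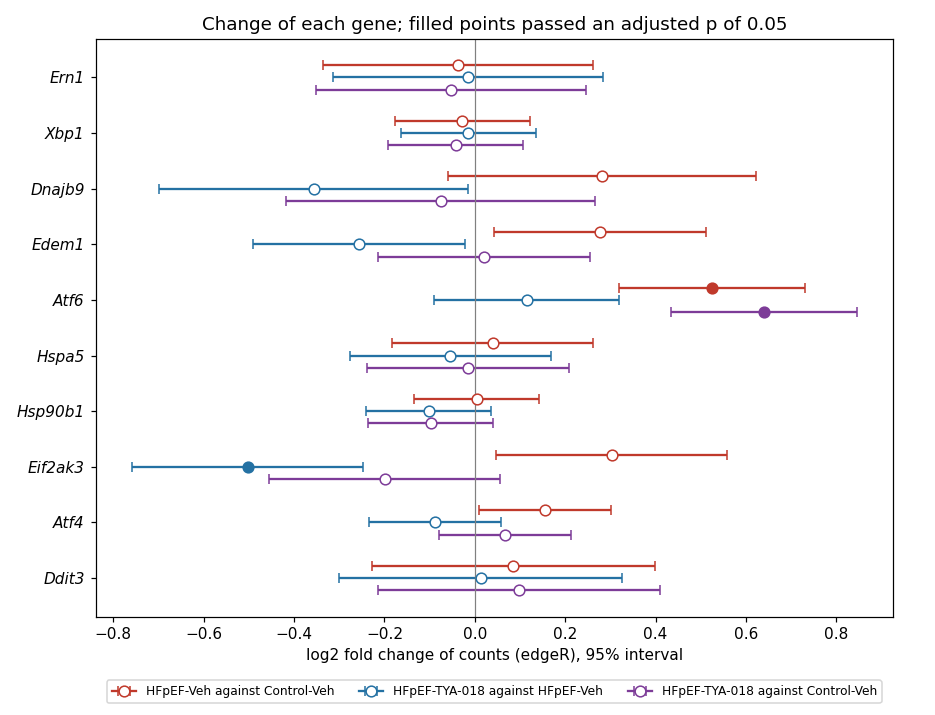
Log2 fold change of counts with its 95% interval (horizontal axis) for each of the 10 genes (rows) in the 3 comparisons (colours). Filled points passed an adjusted p of 0.05: Atf6 at 0.53 and 0.64 against Control-Veh, and Eif2ak3 at -0.50 in HFpEF-TYA-018 against HFpEF-Veh. The intervals of Ern1, Xbp1, Hspa5, Hsp90b1 and Ddit3 include 0 in all 3 comparisons.

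Of the IRE1 arm, neither the sensor nor its substrate passed the test in any comparison. Ern1 was at 8.93, 5.88, 6.42 and 6.80 CPM in C1 to C4, at 7.24, 5.38, 7.23 and 7.46 in V1 to V4, and at 6.83, 6.499, 6.32 and 7.38 in T1 to T4. The groups overlapped, with C1 highest and V2 lowest. The log2 fold change was -0.04 in HFpEF-Veh against Control-Veh (95% interval -0.34 to 0.26) and -0.01 in HFpEF-TYA-018 against HFpEF-Veh (-0.31 to 0.28).

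Xbp1, whose messenger is the substrate of IRE1, was at 40.04, 41.6, 41.5 and 38.3 CPM in Control-Veh, at 41.8, 42.3, 36.6 and 37.7 in HFpEF-Veh and at 38.8, 37.2, 36.9 and 43.9 in HFpEF-TYA-018. All 12 libraries lay between 36.6 and 43.9 CPM with the groups mixed. The interval of its log2 fold change was -0.18 to 0.12 for the model against Control-Veh, -0.16 to 0.14 between the model groups and -0.19 to 0.11 for HFpEF-TYA-018 against Control-Veh. The values count spliced and unspliced Xbp1 together. Over the 12 libraries the tested genes with the highest Pearson r of log2 CPM to Xbp1 were Gm5093 (0.875), 1500011B03Rik (0.832), Ppp1cc (0.822), Gm10335 (0.821) and Zfp777 (0.812). These are descriptions over libraries that share groups and scaling, and Gm5093 and Gm10335 averaged 0.120 and 0.186 CPM.

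The XBP1 targets Dnajb9 and Edem1 had their highest group means in HFpEF-Veh without passing the test. Dnajb9 (ERdj4), an ER cochaperone of BiP, was at 24.2, 16.6, 20.8 and 20.8 CPM in Control-Veh, at 24.2, 24.7, 25.6 and 25.7 in HFpEF-Veh and at 13.8, 17.6, 21.8 and 25.1 in HFpEF-TYA-018. The HFpEF-Veh libraries lay close together, and the HFpEF-TYA-018 libraries spread from below to within them. The log2 fold change was 0.28 (-0.06 to 0.62; edgeR adjusted p 0.222) in HFpEF-Veh against Control-Veh and -0.36 (-0.70 to -0.02; edgeR adjusted p 0.134) in HFpEF-TYA-018 against HFpEF-Veh. Without T4 it passed the latter test, at -0.50 (edgeR adjusted p 0.0376). Dnajb9 shares 5.5% of its 50-base stretches with the gene Gm6568, so part of its reads may be split between them.

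Edem1, which marks misfolded glycoproteins for degradation, was at 8.72, 7.01, 9.24 and 10.0 CPM in Control-Veh, at 10.9, 9.42, 11.9 and 10.2 in HFpEF-Veh and at 8.34, 9.15, 9.48 and 8.55 in HFpEF-TYA-018. Ranges overlapped between HFpEF-Veh and each of the other groups, in the latter case by 1 library, T3 at 9.48 above V2 at 9.42. Its log2 fold change was 0.28 (0.04 to 0.51; edgeR adjusted p 0.0866) in HFpEF-Veh against Control-Veh and -0.26 (-0.49 to -0.02; edgeR adjusted p 0.118) in HFpEF-TYA-018 against HFpEF-Veh.

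Other genes that XBP1 serves, mostly of protein entry into the ER, were taken as a list of 22, of which 21 were tested. In HFpEF-Veh against Control-Veh 6 rose and 0 fell (28.6% against the 10.9% of all tested genes), with a list median of 0.13 on the log2 scale. Sec61a1, the channel of the translocon, rose by 0.32 ± 0.06 (log2 fold change ± SE, edgeR adjusted p 0.00345). Ssr3, a subunit of the translocon-associated complex, rose by 0.37 ± 0.08 (edgeR adjusted p 0.00597). Serp1, which stabilises membrane proteins at the translocon, rose by 0.42 ± 0.11 (edgeR adjusted p 0.0165). These 3 calls and that of Wfs1 held without any 1 of the 12 libraries. The calls of Dnajc3 and Ufm1 were lost in 9 and 7 of 12 fits without 1 library. The count of 6 that rose became 4 without C3, V3, V4, T2 or T3 and in the fit on 2 groups. It was 5 or 6 without any other library.

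With TYA-018 against vehicle in the model, 0 of the 21 rose and 4 fell (19%, against 10.4%). Sec63, a translocon partner of BiP, fell by 0.23 on the log2 scale (SE 0.05, edgeR adjusted p 0.0106) and did so without any 1 library. Serp1 fell by 0.40 (SE 0.11, edgeR adjusted p 0.0222), a call lost without V2, T1 or T2 (up to 0.0646). Ssr3 fell by 0.26 (SE 0.08, edgeR adjusted p 0.0333), lost in 7 of 12 fits without 1 library, each a model library (up to 0.0988). The count of 4 became 1 without V2, T1 or T2, and 2 without V1, V3, V4 or T3. Against Control-Veh, 1 of the 21 rose in HFpEF-TYA-018, Wfs1, an ER membrane glycoprotein, by 0.34 ± 0.07 (edgeR adjusted p 0.0230), lost without C2, C4, T1, T2 or T3 (up to 0.0679). With the deposited effective lengths as an offset, and on rescaled log2(TPM + 1), 0 of the 21 rose in HFpEF-Veh against Control-Veh and 1 fell in HFpEF-TYA-018 against HFpEF-Veh. On log2(TPM + 1) and log2(TPM + 0.1), 0 passed in the first comparison, and in the second 3 and 6 rose and 0 fell. Of all 14333 tested genes, 172 and 301 passed on these scales in the first comparison. In the second, 2228 and 2548 of them rose and 68 and 70 fell. With the lengths as an offset, 1444 and 1221 of all genes were called in the 2 comparisons.

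IRE1 also cuts other ER-bound messengers, and 6 genes known as substrates of this decay were tested. Col6a1, a collagen VI chain, and Pmp22, a membrane protein, both rose in HFpEF-Veh against Control-Veh and both fell in HFpEF-TYA-018 against HFpEF-Veh, and the other 4 did not pass (2 of 6 in each, 33.3%, beside 10.9% and 10.4% of all tested genes). Of the 6, 5 were above zero in the first comparison and 1 in the second, and Bloc1s1 went the other way in both. Bloc1s1 averaged 67.65 ± 16.25, 53.9 ± 6.35 and 64.8 ± 3.96 CPM over the groups (SD, n = 4). Col6a1 averaged 45.5 ± 4.16, 72.7 ± 5.10 and 51.7 ± 2.56 CPM over the groups (SD, n = 4). It changed by 0.67 ± 0.07 and by -0.49 ± 0.07 on the log2 scale (SE; edgeR adjusted p 0.000441 and 0.00178). Pmp22 averaged 33.7 ± 3.76, 61.1 ± 5.75 and 39.3 ± 3.79 CPM, with changes of 0.86 ± 0.10 and -0.64 ± 0.10 (SE; edgeR adjusted p 0.000441 and 0.00181). All 4 calls held without any 1 library and with the lengths as an offset. None of the 4 was made on log2(TPM + 1) or log2(TPM + 0.1), and on the rescaled scale those in HFpEF-TYA-018 against HFpEF-Veh were lost. The summed fibroblast markers moved alongside, at 411 to 616, 608 to 862 and 398 to 587 CPM in the 3 groups, and their part in these values was not tested.

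Of the ATF6 arm, the sensor rose with the model while its main chaperone targets did not pass the test. Atf6 (chr1:170704674-170867771, minus strand, GRCm38) was at 52.6, 43.3, 48.6 and 45.9 CPM in C1 to C4, at 61.6, 60.3, 70.2 and 81.8 in V1 to V4, and at 71.0, 73.0, 73.9 and 78.9 in T1 to T4. The 4 Control-Veh libraries were lowest without overlap, and the HFpEF-TYA-018 libraries lay within the range of HFpEF-Veh. Means were 47.6 ± 3.98, 68.5 ± 9.91 and 74.2 ± 3.36 CPM (SD, n = 4). Atf6 was 1.44 times as high in HFpEF-Veh as in Control-Veh (log2 fold change 0.53 ± 0.09 SE, edgeR adjusted p 0.00313) and 1.56 times as high in HFpEF-TYA-018 (0.64 ± 0.09, edgeR adjusted p 0.00439). Between the model groups the difference was 0.12 on the log2 scale (interval -0.09 to 0.32, edgeR adjusted p 0.425).

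The Atf6 calls against Control-Veh held without any 1 of the 12 libraries, with the deposited lengths as an offset (0.46 and 0.68, edgeR adjusted p 0.0196 and 0.0112) and on rescaled log2(TPM + 1), and were lost on the TPM scales without rescaling. In TPM, Atf6 averaged 2.08 ± 0.170, 2.45 ± 0.406 and 3.95 ± 0.803 over the groups (SD, n = 4), with the highest value, 5.10, in T1. On log2(TPM + 1) with limma the change was 0.16 in HFpEF-Veh against Control-Veh (adjusted p 0.503) and 0.51 in HFpEF-TYA-018 against HFpEF-Veh (adjusted p 0.0313), where on that scale 2228 genes rose and 68 fell and the median of all genes was 0.17. The deposited effective length of Atf6 was 7424 to 8445 bases in Control-Veh, 8471 to 9086 in HFpEF-Veh and 7013 to 7862 in HFpEF-TYA-018, and the longest annotated transcript is 7246 bases.

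**Figure D3:**
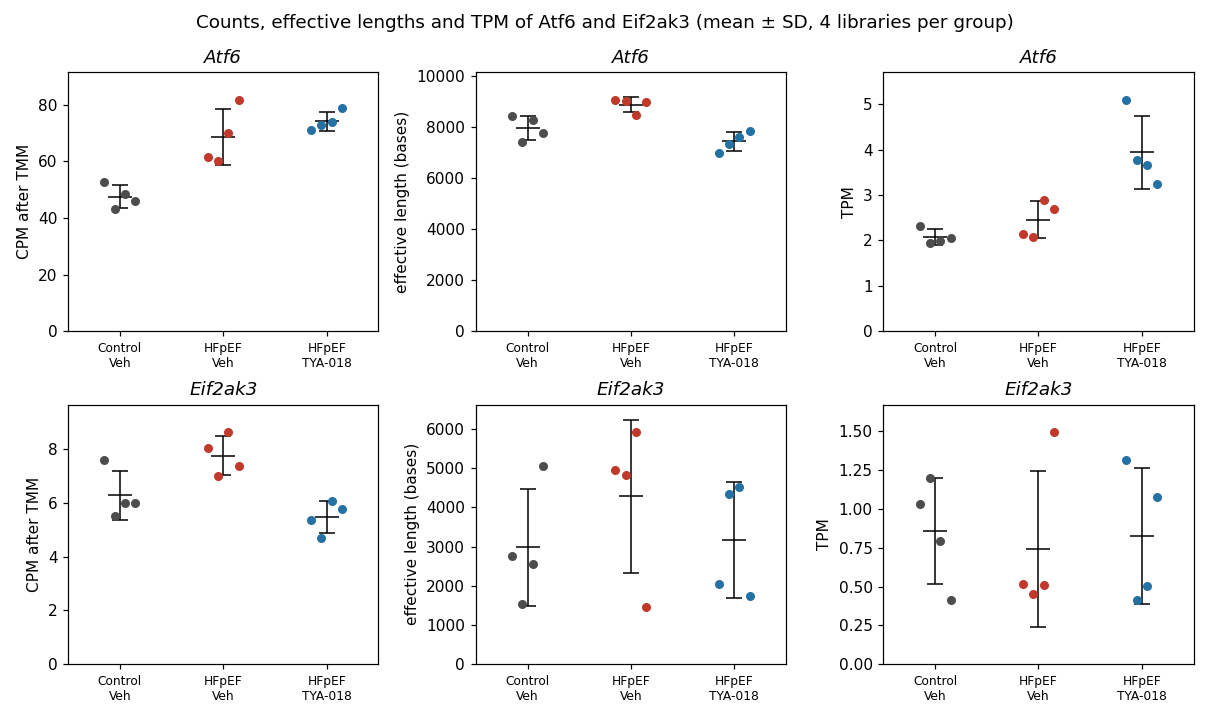
Atf6 (upper row) and Eif2ak3 (lower row) as CPM after TMM, deposited effective length in bases and TPM (vertical axes from 0), with 1 point per library and the mean and SD of 4. Atf6 in CPM is lowest in Control-Veh, whereas in TPM it is highest in HFpEF-TYA-018. The effective length of Eif2ak3 ranges from 1453 to 5912 bases, both of these in HFpEF-Veh.

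Hspa5 encodes BiP, the ER chaperone that holds the sensors inactive. It was at 207, 186, 214 and 208 CPM in Control-Veh, at 199, 200, 227 and 212 in HFpEF-Veh and at 246, 200, 166 and 194 in HFpEF-TYA-018. The groups overlapped, and HFpEF-TYA-018 held both the highest (T1) and the lowest (T3) library. The log2 fold change was 0.04 in HFpEF-Veh against Control-Veh (interval -0.18 to 0.26) and -0.05 in HFpEF-TYA-018 against HFpEF-Veh (-0.28 to 0.17). The genes most like Hspa5 over the 12 libraries were Svopl (Pearson r 0.848), Tmem254a (0.820), Mphosph10 (0.779), Hsp90b1 (0.764) and Atg4c (0.762). As for Xbp1, these are descriptions, picked as the highest over all tested genes, and Svopl and Tmem254a averaged 0.354 and 0.194 CPM.

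Hsp90b1 encodes GRP94, the HSP90 form of the ER lumen. It was at 161, 163, 168 and 168 CPM in Control-Veh, at 163, 168, 165 and 164 in HFpEF-Veh and at 174, 154, 142 and 146 in HFpEF-TYA-018. The 8 vehicle libraries lay within 160.8 to 168.4 CPM, and in HFpEF-TYA-018 T1 was above and the other 3 below that range. The change was 0.0042 in HFpEF-Veh against Control-Veh (interval -0.13 to 0.14) and -0.10 in HFpEF-TYA-018 against HFpEF-Veh (-0.24 to 0.04). T1, the deepest library, was also the highest library for Hspa5. Hsp90b1 overlaps 1810014B01Rik on the other strand and shares 2.96% of its 50-base stretches with genes nested in it.

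A list of 24 further ER chaperones and folding enzymes, textbook targets of ATF6 among them, was tested whole. In HFpEF-Veh against Control-Veh 3 rose and 0 fell (12.5% against 10.9% of all tested genes), and the median was 0.09. Pdia3, a disulfide isomerase for glycoproteins, was at 87.2 ± 3.81, 105 ± 10.3 and 83.8 ± 4.59 CPM in the 3 groups (SD, n = 4). It rose by 0.26 ± 0.07 on the log2 scale in HFpEF-Veh (edgeR adjusted p 0.0241), a call lost without C2, C3, C4 or V2 (up to 0.0693). Hyou1, an ER HSP70-like chaperone, rose by 0.25 ± 0.07 (edgeR adjusted p 0.0245), lost without C2, C3, C4 or V1 (up to 0.0683). Manf, a secreted ER stress protein, rose by 0.20 ± 0.06 (edgeR adjusted p 0.0409), lost in 8 of 12 fits without 1 library (up to 0.114).

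Between the model groups, 2 of the 24 fell and 1 rose (8.33% and 4.17%, beside 10.4% and 8.93% of all tested genes). Pdia3 fell by 0.32 (SE 0.07, edgeR adjusted p 0.0113) and Manf fell by 0.26 (SE 0.06, edgeR adjusted p 0.0132), each without any 1 library too. Prkcsh, the beta subunit of glucosidase II, rose by 0.36 ± 0.10 (edgeR adjusted p 0.0258), lost without V1, V2, T1 or T2 (up to 0.0793). Against Control-Veh, HFpEF-TYA-018 had 0 of the 24 past the threshold in edgeR, and the median was 0.01. The calreticulin gene Calr was at 186 ± 7.25, 186 ± 10.2 and 167 ± 9.61 CPM (SD, n = 4), and no comparison of it passed. With the lengths as an offset, 1 of the 24 rose in HFpEF-Veh against Control-Veh and 1 fell in HFpEF-TYA-018 against HFpEF-Veh. On log2(TPM + 1) and log2(TPM + 0.1), 0 passed in the first comparison, and 1 rose and 0 fell in the second. Of all 14333 tested genes, 172 and 301 passed on these scales in the first comparison. In the second, 2228 and 2548 of them rose and 68 and 70 fell.

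Of the PERK arm, the sensor gene Eif2ak3 (chr6:70844515-70905245, plus strand, GRCm38) was at 7.60, 5.53, 6.01 and 6.01 CPM in C1 to C4, at 8.05, 6.995, 8.63 and 7.36 in V1 to V4, and at 5.35, 4.70, 6.07 and 5.78 in T1 to T4. Each HFpEF-TYA-018 library was below each HFpEF-Veh library, and C1 lay among the HFpEF-Veh libraries. Eif2ak3 was 0.706 times as high in HFpEF-TYA-018 as in HFpEF-Veh (log2 fold change -0.50 ± 0.12 SE, edgeR adjusted p 0.0130). In HFpEF-Veh against Control-Veh the change was 0.30 (interval 0.05 to 0.56, edgeR adjusted p 0.0846) and, without C1, 0.41 (edgeR adjusted p 0.0164). In HFpEF-TYA-018 against Control-Veh it was -0.20 (-0.46 to 0.06, edgeR adjusted p 0.351).

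The fall of Eif2ak3 in HFpEF-TYA-018 against HFpEF-Veh was called without any 1 library and by DESeq2 (-0.51, adjusted p 0.00122), and was not called on any scale that used the deposited lengths. With lengths as an edgeR offset it was -0.34 (adjusted p 0.721), and on log2(TPM + 1) with limma 0.08 (adjusted p 0.808). The effective lengths behind this were 4950, 4814, 5912 and 1453 bases in V1 to V4 and 2052, 4338, 4529 and 1738 in T1 to T4, against annotated transcripts of 347 to 4513 bases. The counts behind Eif2ak3 were 415 to 568 in HFpEF-Veh and 305 to 504 in HFpEF-TYA-018.

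Atf4, the transcription factor made when PERK or a related kinase acts, was at 60.6, 75.0, 69.2 and 71.2 CPM in Control-Veh, at 77.5, 77.3, 74.2 and 78.5 in HFpEF-Veh and at 72.0, 71.6, 68.0 and 77.6 in HFpEF-TYA-018. C1 was lowest, and C2 and T4 lay within the range of the HFpEF-Veh libraries. The change was 0.16 in HFpEF-Veh against Control-Veh (interval 0.01 to 0.30, edgeR adjusted p 0.118) and -0.09 in HFpEF-TYA-018 against HFpEF-Veh (-0.23 to 0.06, edgeR adjusted p 0.389). Atf4 is controlled mainly in translation, which these RNA values do not show.

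Ddit3 (CHOP), a factor downstream of ATF4 tied to cell death, was at 10.8, 18.2, 15.96 and 14.7 CPM in Control-Veh, at 18, 16.7, 14.1 and 14.6 in HFpEF-Veh and at 14.9, 18.8, 14.6 and 15.7 in HFpEF-TYA-018. The groups overlapped, and C1 was lowest as for Atf4. The change was 0.09 in HFpEF-Veh against Control-Veh (interval -0.23 to 0.40) and 0.01 in HFpEF-TYA-018 against HFpEF-Veh (-0.30 to 0.33). The annotation holds 2 gene entries named Ddit3, and Mars overlaps it on the other strand.

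Genes that ATF4 serves were taken as a list. Of its 33 genes, among them genes of amino acid synthesis, uptake and tRNA charging, 31 were tested, and in HFpEF-Veh against Control-Veh 13 rose and 3 fell. That is 41.9% and 9.68%, beside 10.9% and 10.3% of all tested genes, and the list median was 0.29. Mthfd2, a mitochondrial enzyme of one-carbon metabolism, was at 1.10, 1.41, 1.53 and 1.53 CPM in C1 to C4, at 5.42, 3.00, 4.91 and 3.40 in V1 to V4 and at 3.11, 3.20, 3.81 and 2.64 in T1 to T4. All 8 model libraries were above the 4 Control-Veh libraries. It was 3.00 times as high in HFpEF-Veh as in Control-Veh (log2 fold change 1.59 ± 0.20 SE, edgeR adjusted p 0.000712).

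Gdf15, a secreted stress hormone, was at 0.529, 0.953, 0.584 and 0.540 CPM in C1 to C4, at 1.599, 4.87, 4.92 and 4.24 in V1 to V4 and at 1.21, 1.46, 3.17 and 2.59 in T1 to T4. V1 was the lowest HFpEF-Veh library and still above all Control-Veh libraries. Its log2 fold change was 2.59 ± 0.40 (SE, edgeR adjusted p 0.001595). Slc7a5, a transporter of large amino acids, averaged 4.20 ± 0.432, 6.72 ± 0.834 and 5.12 ± 0.827 CPM (SD, n = 4) and rose by 0.68 ± 0.13 (edgeR adjusted p 0.00510). The other 10 that rose were Cebpg, Psat1, Ppp1r15b, Asns, Atf5, Slc3a2, Trib3, Nupr1, Aldh18a1 and Phgdh, by 0.29 to 0.85. Of these, Cebpg, Psat1, Ppp1r15b, Asns and Atf5 were called without any 1 library. Phgdh was lost in 11 of 12 such fits, Aldh18a1 in 9, Nupr1 in 7, Trib3 in 6 and Slc3a2 in 5.

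The 3 that fell in HFpEF-Veh were Cebpb, Vldlr and Chac1. Cebpb, a transcription factor that pairs with ATF4, averaged 68.6 ± 1.88, 49.7 ± 6.33 and 63.2 ± 1.76 CPM (SD, n = 4), and fell by 0.47 on the log2 scale (SE 0.08, edgeR adjusted p 0.00192). Vldlr, a lipoprotein receptor, fell by 0.46 (SE 0.08, edgeR adjusted p 0.00234). Chac1, which breaks down glutathione, fell by 0.79 (SE 0.21, edgeR adjusted p 0.0218), a call lost without C2, C3, V1 or V3 (up to 0.0670). Atf3 (0.41), Ddit4 (0.30) and Ppp1r15a (0.12), the last of which encodes a subunit that reverses eIF2 alpha phosphorylation, did not pass (edgeR adjusted p 0.256, 0.405 and 0.284).

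After TYA-018, 3 of the 31 rose and 2 fell against HFpEF-Veh (9.68% and 6.45%, beside 8.93% and 10.4% of all tested genes), and the list median was -0.16. With the lengths as an offset and on rescaled log2(TPM + 1), 0 rose and 0 fell, where 1221 and 742 of all genes were called. On log2(TPM + 1) and log2(TPM + 0.1) 5 rose and 0 fell, with list medians of 0.21 and 0.39. Of all 14333 tested genes, 2228 and 2548 rose and 68 and 70 fell on those TPM scales. The medians of all genes there were 0.17 and 0.34. The 3 that rose were the same 3 genes that had fallen in the model against Control-Veh, and both comparisons share the HFpEF-Veh libraries. Cebpb rose by 0.35 ± 0.08 (edgeR adjusted p 0.00933), a call kept without any 1 library. Vldlr rose by 0.26 ± 0.08 (edgeR adjusted p 0.0372) and Chac1 by 0.66 ± 0.21 (edgeR adjusted p 0.0475), calls lost in 7 and 9 of 12 fits without 1 library. Stc2, a secreted glycoprotein, fell by 0.33 (SE 0.09, edgeR adjusted p 0.0207), lost without V1 or T2 (up to 0.0564). Ppp1r15b, another subunit for eIF2 alpha dephosphorylation, fell by 0.21 (SE 0.07, edgeR adjusted p 0.0448), lost in 9 of 12 such fits. Mthfd2 changed by -0.39 (interval -0.82 to 0.04, edgeR adjusted p 0.189) and Gdf15 by -0.89 (-1.71 to -0.07, edgeR adjusted p 0.120).

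In HFpEF-TYA-018 against Control-Veh 4 of the 31 rose and 0 fell (12.9%, against 3.12% of all tested genes), with a list median of 0.13. Mthfd2 rose by 1.20 ± 0.20 (edgeR adjusted p 0.00827), kept without any 1 library. Aars, the alanine tRNA synthetase, rose by 0.21 ± 0.05 (edgeR adjusted p 0.0234), lost without C3, C4, T1 or T2 (up to 0.0673). Gdf15 rose by 1.69 ± 0.40 (edgeR adjusted p 0.0303), lost without C1, C3, C4, T3 or T4 (up to 0.0870), and Asns was lost in 11 of 12 such fits. The count of 13 genes that rose in HFpEF-Veh was 8 without C2 and 9 to 12 without any other library. It was 5 with the deposited lengths as an offset, 1 on log2(TPM + 1), 2 on log2(TPM + 0.1) and 6 on the rescaled scale. Calls over all genes in either direction, 3033 in the main fit, were 1444, 172, 301 and 1055 in the same order. The summed macrophage markers were 77.8 to 92.2, 121 to 155 and 83.7 to 97.8 CPM, and their part in these values was not tested.

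**Figure D4:**
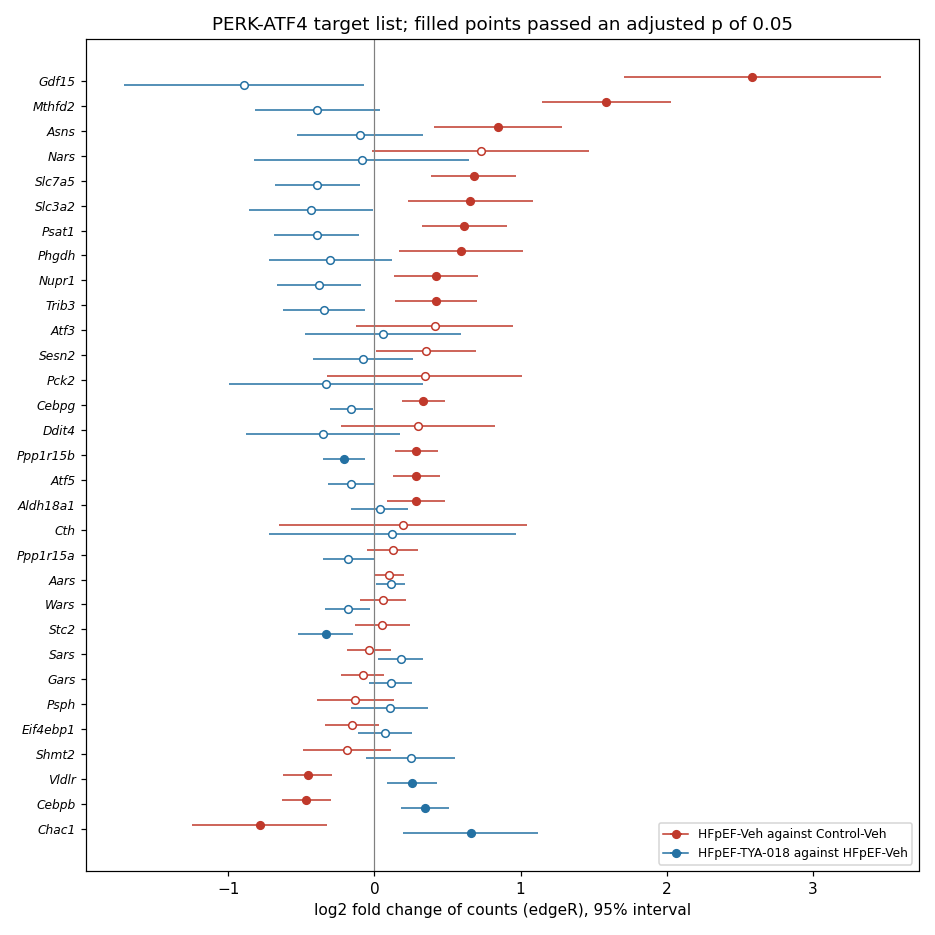
Log2 fold change of counts with its 95% interval (horizontal axis) for the 31 tested genes of the PERK-ATF4 list (rows), in HFpEF-Veh against Control-Veh (red) and in HFpEF-TYA-018 against HFpEF-Veh (blue). Filled points passed an adjusted p of 0.05: 13 red points right of 0 and 3 left of it, and 3 blue points right of 0 and 2 left of it. Both colours share the HFpEF-Veh libraries.

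Further regulators of the response were a list of 19, of which 18 were tested. In HFpEF-Veh against Control-Veh 3 rose and 1 fell (16.7% and 5.56%, beside 10.9% and 10.3% of all tested genes). Nck1, an adaptor that counters eIF2 alpha phosphorylation, rose by 0.46 ± 0.09 (edgeR adjusted p 0.00400), and Creb3l2, an ATF6-like factor, by 0.31 ± 0.07 (edgeR adjusted p 0.0126). Creb3l1, an ATF6-like factor of collagen-secreting cells, rose by 0.40 ± 0.11 (edgeR adjusted p 0.0202), lost without C3 or V1 (up to 0.0533). Creb3l3, an ATF6-like factor best known from the liver, was the 1 that fell, by 2.86 (SE 0.82, edgeR adjusted p 0.0286). It had 12 to 24 counts in Control-Veh libraries and 0 to 5 in HFpEF-Veh libraries. It thus passed the filter on low counts only through groups where it was higher. Its calls enter the shares given for this list but are no support for a change. The call was lost without C2, C4, V2, V3 or V4 (up to 0.0809).

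Of the 18, 4 fell and 2 rose in HFpEF-TYA-018 against HFpEF-Veh (22.2% and 11.1%, beside 10.4% and 8.93% of all tested genes). Creb3l1 was at 6.61 ± 0.951, 8.72 ± 0.535 and 5.62 ± 0.415 CPM in the 3 groups (SD, n = 4) and fell by 0.63 (SE 0.11, edgeR adjusted p 0.00294). Eif2ak4 (GCN2), the amino acid sensing kinase that also acts on eIF2 alpha, was at 8.22 ± 0.827, 9.94 ± 0.727 and 7.19 ± 0.570 CPM and fell by 0.47 (SE 0.09, edgeR adjusted p 0.00589). Nck1 fell by 0.44 (SE 0.09, edgeR adjusted p 0.00597), and these 3 calls held without any 1 library. Rtcb, the ligase that joins spliced Xbp1, rose by 0.19 ± 0.05 (edgeR adjusted p 0.0205), lost without V1, V4 or T1 (up to 0.0645). Creb3l3 rose by 2.94 ± 0.82 (edgeR adjusted p 0.0279) on 6 to 47 counts in HFpEF-TYA-018 libraries, lost without V2, V3, V4 or T3 (up to 0.0863). In the fit on these 2 groups alone, 16 genes of the list passed the filter, and 1 rose and 4 fell. Between HFpEF-TYA-018 and Control-Veh 0 of the 18 passed in edgeR. None of the 18 passed in any comparison on log2(TPM + 1), and on log2(TPM + 0.1) 3 rose and 0 fell in HFpEF-TYA-018 against HFpEF-Veh. Between these groups, 2228 and 2548 of all 14333 tested genes rose and 68 and 70 fell on the same scales. On log2(TPM + 1), 172 of all genes were called in HFpEF-Veh against Control-Veh and 9 in HFpEF-TYA-018 against Control-Veh.

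Of 21 tested genes of ER-associated degradation, 1 rose and 0 fell in HFpEF-Veh against Control-Veh (4.76%, beside 10.9% and 10.3% of all tested genes): Ube2g2, a ubiquitin-conjugating enzyme, by 0.21 ± 0.05 (edgeR adjusted p 0.00942). In HFpEF-TYA-018 against HFpEF-Veh 2 rose and 1 fell (9.52% and 4.76%, beside 8.93% and 10.4%). Vcp, the ATPase that pulls proteins out of the ER membrane, was at 241 ± 21.8, 222 ± 25.2 and 293 ± 15.0 CPM in the 3 groups (SD, n = 4) and rose by 0.40 ± 0.09 (edgeR adjusted p 0.00988), a call kept without any 1 library and with the lengths as an offset. Rnf5, a ubiquitin ligase, rose by 0.20 ± 0.06 (edgeR adjusted p 0.0380), and Sel1l, the partner of the ligase HRD1, fell by 0.15 (SE 0.05, edgeR adjusted p 0.0425), lost in 8 and 10 of 12 fits without 1 library.

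Of these 21, 3 rose in HFpEF-TYA-018 against Control-Veh and 0 fell (14.3%, beside 3.12% and 2.74% of all tested genes). Ube2g2 rose by 0.23 ± 0.05 (edgeR adjusted p 0.0202), Derl1, a channel protein, by 0.21 ± 0.05 (edgeR adjusted p 0.0291) and Rnf5 by 0.24 ± 0.06 (edgeR adjusted p 0.0393), lost in 3, 5 and 8 of 12 such fits. With the lengths as an offset and on the 3 TPM scales, 0 of these genes passed in that comparison. Few genes of any kind did: 206 of all genes with lengths, 9 and 11 on the TPM scales without rescaling and 94 rescaled. In HFpEF-TYA-018 against HFpEF-Veh 5 of these genes rose and 0 fell on log2(TPM + 1) and log2(TPM + 0.1). On these scales, 2228 and 2548 of all 14333 tested genes rose and 68 and 70 fell between the model groups. Of 9 tested genes of ER stress cell death, 1 rose and 1 fell in HFpEF-Veh against Control-Veh (11.1% each, beside 10.9% and 10.3% of all tested genes). The BH3-only gene Bcl2l11 (BIM) fell by 0.53 (SE 0.10, edgeR adjusted p 0.00352), without any 1 library too. It rose by 0.35 ± 0.10 in HFpEF-TYA-018 against HFpEF-Veh (edgeR adjusted p 0.0297), lost without V2, V3, T1 or T3 (up to 0.0853). It was the 1 of 9 called there (11.1%, beside 8.93%). The death receptor gene Tnfrsf10b (DR5) rose in HFpEF-Veh against Control-Veh by 0.44 ± 0.14 (edgeR adjusted p 0.0454), lost in 10 of 12 such fits.

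**Figure D5:**
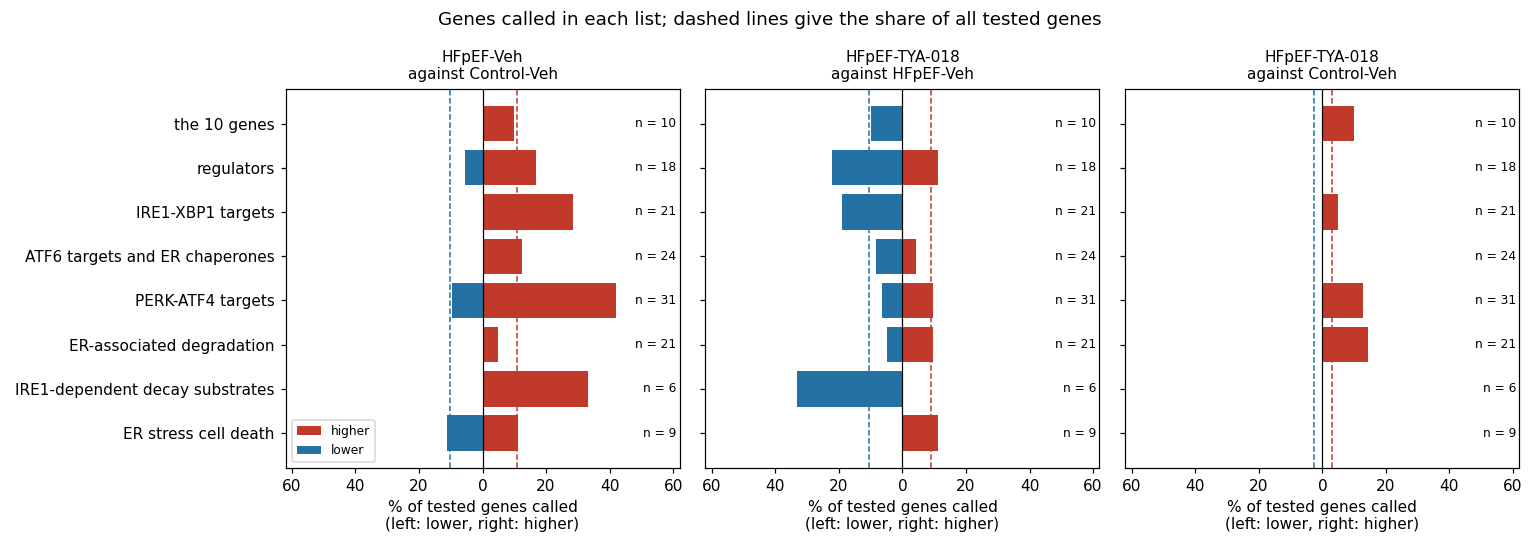
Share of tested genes that were called higher (right, red) and lower (left, blue) in each list (rows), in % (horizontal axis), for the 3 comparisons (panels), with dashed lines at the share of all tested genes. In HFpEF-Veh against Control-Veh 41.9% of the PERK-ATF4 list and 28.6% of the IRE1-XBP1 list rose, beside 10.9% of all tested genes, and 10% of the 10 genes did. The lists were chosen with earlier results of these data known.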

How the data were processed

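Left ventricular RNA of 12 mice was sequenced, and groups were taken from the sample labels. The authors quantified reads with Salmon 1.6.0 against mouse transcripts and summed them per gene with tximport. The deposited estimated counts are fractional and not normalised, the deposited TPM values are scaled by the authors for length and depth, and the deposited effective lengths (another kind of value, in bases) come from the same step. All columns of values were used (0 were left out).

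Rounded counts entered edgeR 4.0.16 (R 4.3.3). filterByExpr left 14333 genes with 99.98% of the counts, libraries were scaled by TMM, and 1 quasi-likelihood model was fitted to all 12 libraries (9 residual degrees of freedom). Tests were two-sided, and p-values of the 14333 genes were adjusted together by Benjamini-Hochberg, with calls under 0.05. Each library is 1 mouse by its animal number. Library measures were compared by two-sided exact permutation tests, whose smallest p is 0.0286. DESeq2 1.42.0, limma 3.58.1 on log2 TPM, lengths as an offset, no filter, fits on 2 groups and leaving out each library were alternatives. The edgeR step was also run on simulated counts, with less spread between libraries than the common estimate for these data. The changes set there were larger than most named here, so that run does not measure how well smaller changes are recovered.

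The 10 genes and all lists were chosen with earlier results of these data known. From each list, up to 3 called genes with the smallest p in each direction and comparison were named with their tests. The other members named without a test, and Atf3, Ddit4, Ppp1r15a and Calr, were chosen after their values were seen. Promoters are RefSeq, GRCm38.p6, and gene positions are GENCODE M21. No labels gave a batch, and animal numbers of a group lie together, so an order of handling that followed them cannot be told apart from the group.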

Additional observations from a re-analysis of the deposited data

Results flagged for a closer look

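The level of Ern1 in V2 was 5.38 CPM, low beside 7.23 to 7.46 CPM in the other HFpEF-Veh libraries, and its gap to the nearest of these exceeded Dixon's limit for 4 samples. It was the 1 value flagged among 66 groups of 4 libraries checked, and chance flags about 1 in 20 such groups.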

How the results depend on the processing

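No paired analysis was possible because each animal number in the labels occurs in 1 group. Over the comparisons of a gene under an alternative, the 10 genes kept direction and call in 475, lost a call in 6, gained one in 4 and turned in direction in 85, of which 0 passed the threshold in the alternative. The cause was not tested. Of the 85, 19 were on log2(TPM + 1), 19 on log2(TPM + 0.1), 8 with lengths as an offset, 9 on rescaled log2(TPM + 1) and 30 without 1 library.

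On log2(TPM + 1) and log2(TPM + 0.1), respectively, the genes that turned in HFpEF-Veh against Control-Veh were Atf4 (-0.0331 and -0.0357), Hspa5 (-0.231 and -0.241), Dnajb9 (-0.104 and -0.136), Hsp90b1 (-0.13 and -0.138), Eif2ak3 (-0.113 and -0.259) and Edem1 (-0.0159 and -0.0499). Those in HFpEF-TYA-018 against HFpEF-Veh were Xbp1 (0.33 and 0.358), Ern1 (0.103 and 0.394), Atf4 (0.275 and 0.295), Hspa5 (0.467 and 0.484), Dnajb9 (0.222 and 0.292), Hsp90b1 (0.437 and 0.457), Eif2ak3 (0.0752 and 0.16) and Edem1 (0.0669 and 0.187). Those in HFpEF-TYA-018 against Control-Veh were Xbp1 (0.128 and 0.138), Ern1 (0.0412 and 0.144), Hspa5 (0.236 and 0.242), Dnajb9 (0.117 and 0.156) and Hsp90b1 (0.307 and 0.319). With lengths as an offset, Hspa5 (-0.025) turned in the first comparison, Ern1 (0.129), Hspa5 (0.0534), Ddit3 (-0.228) and Hsp90b1 (0.00185) in the second and Hspa5 (0.0284), Hsp90b1 (0.0862) and Edem1 (-0.0635) in the last. On rescaled log2(TPM + 1), Xbp1 (0.0409) and Eif2ak3 (-0.0206) turned in the first, Ern1 (0.0639), Hspa5 (0.0289), Ddit3 (-0.247) and Hsp90b1 (0.00312) in the second and Hspa5 (0.0506), Hsp90b1 (0.127) and Edem1 (-0.0185) in the last.

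Without 1 library, values on both sides of zero were given in HFpEF-Veh against Control-Veh by Xbp1 (-0.0588 to 0.00835), Ern1 (-0.113 to 0.101), Hspa5 (-0.00204 to 0.0664), Ddit3 (-0.0413 to 0.197) and Hsp90b1 (-0.00728 to 0.015). The same held in HFpEF-TYA-018 against HFpEF-Veh for Xbp1 (-0.0726 to 0.019), Ern1 (-0.114 to 0.0298), Hspa5 (-0.164 to 0.0276) and Ddit3 (-0.0754 to 0.0791). The same held in HFpEF-TYA-018 against Control-Veh for Ern1 (-0.128 to 0.0857), Hspa5 (-0.125 to 0.0671), Ddit3 (-0.0288 to 0.209), Dnajb9 (-0.215 to 0.0607) and Edem1 (-0.0703 to 0.0919).

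The number of the 10 genes called in HFpEF-Veh against Control-Veh was 0 on both TPM scales, and in HFpEF-TYA-018 against Control-Veh also 0 on both. In HFpEF-TYA-018 against HFpEF-Veh it was 0 with lengths as an offset and 0 on rescaled log2(TPM + 1). Leaving out 1 library gave 1 to 2 called genes in HFpEF-Veh against Control-Veh (2 without C1, with Eif2ak3) and 1 to 2 in HFpEF-TYA-018 against HFpEF-Veh (2 without T4, with Dnajb9).

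Over all genes, the calls in HFpEF-Veh against Control-Veh (3033) were 1444 with lengths as an offset, 172 on log2(TPM + 1), 301 on log2(TPM + 0.1) and 1055 on rescaled log2(TPM + 1), and 1986 to 3992 without 1 library. In HFpEF-TYA-018 against HFpEF-Veh (2767) they were 1221 with lengths and 742 rescaled, and 1485 to 3251 without 1 library. In HFpEF-TYA-018 against Control-Veh (840) they were 1514 with DESeq2, 206 with lengths, 9 and 11 on the TPM scales and 94 rescaled, and 308 to 809 without 1 library. On log2(TPM + 0.1) the median of all genes was -0.17, 0.34 and 0.17 in the 3 comparisons. On log2(TPM + 0.1) and log2(TPM + 1), 93 of 301 and 51 of 172 called genes rose in HFpEF-Veh against Control-Veh. In HFpEF-TYA-018 against HFpEF-Veh 2548 rose and 70 fell on the first scale and 2228 rose and 68 fell on the second. With 4 libraries a group, intervals of the log2 fold change of the 10 genes reached 0.70 from zero where no call was made.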
